A study of Caenorhabditis elegans with 3 samples.

Results

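The alanine and threonine tRNA genes of *Caenorhabditis elegans* were examined for occupancy by RNA polymerase III (Pol III), which makes tRNAs, 5S rRNA and other short RNAs. The genes were all nuclear genes of biotype tRNA whose product is tRNA-Ala or tRNA-Thr in the RefSeq annotation of the assembly WBcel235, the same sequence as build ce11, and no measured value entered that choice. It gave 68 genes, 34 alanine and 34 threonine, of the 612 nuclear tRNA genes, and left 544 other tRNA genes for comparison. The readout was ChIP-seq, in which DNA bound to a protein is pulled down and sequenced, of RPC-1, the largest Pol III subunit, in whole young adult hermaphrodites of strain YL517. These worms stably carry RPC-1 with GFP and FLAG at its C terminus, and the pulldown used an antibody to GFP. The promoter that drives the fusion is not given in the sources used here, and a whole animal mixes all its tissues, so a peak does not say in which cells a gene was bound. There was 1 group, with 3 biological replicates, and every comparison was between genes and none between conditions.

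The authors deposited 24182, 24563 and 30000 peaks for replicates 1, 2 and 3 on ce11, a list of 30000 peaks from the pooled replicates, and a list of 1914 reproducible peaks. Each peak has a signal, which is the authors' own value and is used here only to order or describe peaks within its list. For each gene the strongest peak overlapping it by at least 1 bp was taken, and its rank was counted from the top of its list, so rank 1 is the strongest peak. A lower rank therefore means a stronger peak. Depth per sample is unknown, since the lists give no read numbers.

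Alanine and threonine tRNAs carry their amino acids to the ribosome, and each amino acid is served by several anticodons. A tRNA gene has its promoter inside the transcribed part: the A box near the start and the B box farther on are bound by the factor TFIIIC, which brings TFIIIB and through it Pol III. Transcription ends at a run of T just after the gene. Hermaphrodites carry X chromosomes in the same number as each autosome, so copies on X and on autosomes are present at equal dose.

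The anticodon could be read by script in 67 of the 68 genes. Of the alanine genes, 22 had the anticodon AGC, 8 had TGC and 4 had CGC. Of the threonine genes, 17 had AGT, 9 had TGT and 7 had CGT, and T13B5.t2 had no anticodon loop that met the pairing rule. Most members were identical copies of one another: 52 belonged to a family of identical genes and 16 did not. The largest families were 17 alanine AGC copies and 15 threonine AGT copies. The sequences below, from RefSeq on WBcel235, run 5′ to 3′ on the gene's own strand and go 20 bases past its end. Capitals mark the A box, the anticodon, the B box and the run of T, in that order, where each was found. They show the strongest alanine gene, a member of another alanine anticodon, the alanine gene without a peak, the strongest AGT threonine gene, a CGT threonine gene, a gene annotated as threonine that has an alanine sequence, and the weakest threonine gene. The positions are X:6286321-6286392 for T07H6.t1 (plus strand), X:12890285-12890356 for K02A4.t2 (minus strand), V:857325-857396 for K09C6.t1 (plus strand), X:13283637-13283708 for R04D3.t5 (minus strand), X:11935080-11935151 for F55G7.t2 (minus strand), II:7003273-7003344 for C52E12.t2 (plus strand) and II:1102360-1102432 for T13B5.t2 (minus strand).
T07H6.t1: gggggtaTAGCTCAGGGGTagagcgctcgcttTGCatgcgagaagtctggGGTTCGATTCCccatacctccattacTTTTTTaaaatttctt
K02A4.t2: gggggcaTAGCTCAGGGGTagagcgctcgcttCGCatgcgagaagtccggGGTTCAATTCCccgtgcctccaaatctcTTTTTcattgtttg
K09C6.t1: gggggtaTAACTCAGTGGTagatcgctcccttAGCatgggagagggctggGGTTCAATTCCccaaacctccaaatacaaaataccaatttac
R04D3.t5: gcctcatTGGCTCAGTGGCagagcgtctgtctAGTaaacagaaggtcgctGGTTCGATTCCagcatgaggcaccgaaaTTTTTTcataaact
F55G7.t2: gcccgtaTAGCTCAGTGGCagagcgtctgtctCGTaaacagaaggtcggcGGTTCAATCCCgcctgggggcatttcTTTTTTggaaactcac
C52E12.t2: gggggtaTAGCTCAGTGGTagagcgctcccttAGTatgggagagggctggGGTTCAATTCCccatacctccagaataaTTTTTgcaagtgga
T13B5.t2: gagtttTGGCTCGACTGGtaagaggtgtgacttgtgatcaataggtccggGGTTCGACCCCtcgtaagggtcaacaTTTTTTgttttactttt

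The sequences differed more between the isotypes than within one. The AGC and TGC alanine families had 65 of 72 bases in common (90.3%), whereas the AGC alanine and AGT threonine families had 37 of 72 (51.4%). Among the threonine families, CGT and TGT had 60 of 72 in common (83.3%), and AGT and CGT 57 of 72 (79.2%). The least alike pair within an isotype was AGT and TGT threonine, with 49 of 72 (68.1%). The most alike pair between isotypes was TGC alanine and TGT threonine, with 44 of 72 (61.1%). The B box, searched on the gene's strand, was exact in 34 of 34 alanine genes and in 24 of 34 threonine genes, against 82.2% of all nuclear tRNA genes. None of the 9 TGT threonine genes had an exact B box, but all 68 members had its inner letters GTTCNANNC, which 95.9% of all nuclear tRNA genes hold. The A box, with at most 1 mismatch, was found in 21 alanine genes and 33 threonine genes, against 53.3% of all. None of the 12 TGC and CGC alanine genes had it within that limit, so in T07H6.t1 and K02A4.t2 above the capitals mark the best match, with 2 mismatches. A run of at least 4 T within 50 bases of the end followed 33 alanine genes and 33 threonine genes, against 98.9% of all nuclear tRNA genes, with K09C6.t1 and W09G10.t3 as the exceptions. These letter matches describe the genes and do not show where a factor binds.

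RPC-1 peaks covered nearly every member. A reproducible peak overlapped 33 of 34 alanine genes and 34 of 34 threonine genes, together 98.5% of the members (exact binomial 95% interval 92.1 to 99.96%, which covers the counting of genes only), against 523 of the 544 other tRNA genes. Over all 612 tRNA genes the share was 96.4%, so the members' count lay near that of tRNA genes in general. The same 67 members were overlapped by the stronger part of that list, its top 957 peaks, which covered 93.3% of all tRNA genes. They were also overlapped by the strongest 1914 peaks of replicates 1, 2 and 3, which covered 95.1%, 95.3% and 95.6% of all tRNA genes. The alanine gene K09C6.t1 had no peak in the reproducible list, in the pooled list or in any replicate's list.

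More alanine than threonine genes lay at the top of the lists. Among the strongest 100 reproducible peaks, 11 alanine genes and 6 threonine genes were covered, against 12.1% of all tRNA genes, which is 32.4% of alanine and 17.6% of threonine genes. Among the strongest 100 peaks of each replicate, 12, 12 and 10 alanine genes and 6, 5 and 5 threonine genes were covered, against 11.6%, 12.4% and 10.8% of all tRNA genes in replicates 1, 2 and 3. The alanine counts are of genes and exceed the number of peaks. In every replicate list the F15G9.t1 and F15G9.t2, F18G5.t1 and F18G5.t2, and Y65A5A.t1 and Y65A5A.t2 pairs each shared a peak. The F15G9 pair also shared its reproducible peak, whereas the threonine genes counted shared none with another tRNA gene. The exact 95% intervals of the reproducible shares, 17.4 to 50.5% for alanine and 6.76 to 34.5% for threonine, overlapped. They treat genes that share a peak as separate. Most of the genes in the top 100 of the reproducible list lay on the X chromosome: 9 of the 11 alanine genes and 5 of the 6 threonine genes.

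The median rank of the alanine genes was 222.5, 210.5 and 187 in replicates 1, 2 and 3, and that of the threonine genes was 274.5, 284.5 and 272. Alanine genes were thus ranked higher up in all 3 lists, with a mean difference of -70.3 ± 16.8 ranks (alanine minus threonine, SD, n = 3 lists; exact two-sided sign-flip permutation test, p = 0.25). Each SD here is over lists of the same genes and leaves out the spread between genes. In replicate 1 the quartiles were 65.25 and 467.75 for alanine genes and 151.75 and 420.25 for threonine genes. With 3 lists this test cannot go below 0.25, so none of the comparisons here could pass 0.05, and over the 42 comparisons computed the Benjamini-Hochberg adjusted value was 0.2625 for the 40 that reached the minimum. The other tRNA genes had medians of 334.5, 339 and 342. Alanine genes lay -131.8 ± 21.7 and threonine genes -61.5 ± 7.86 ranks from these (SD, n = 3 lists; exact p = 0.25 each).

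Of the 20 isotypes with at least 10 genes, alanine had the lowest median rank in every replicate, and threonine came 6th, 5th and 5th. In the reproducible list alanine came 4th with a median of 219.5, behind glutamine with 168, cysteine with 186 and aspartate with 212, and threonine came 7th with 270.5. The closest neighbour of alanine changed between the replicate lists. It was glutamate in replicate 1 with a median of 240, glutamine in replicate 2 with 235 and cysteine in replicate 3 with 188, which was 1 rank behind alanine. Threonine did not stand apart from its neighbours. Glutamate, aspartate, valine, tryptophan and cysteine each lay before it in some replicate lists and behind it in others. Glutamine lay before threonine in every replicate list. Against the glycine genes, the largest isotype, the differences were -101.3 ± 32.2 ranks for alanine genes and -31 ± 15.5 ranks for threonine genes (SD, n = 3 lists; exact sign-flip permutation p = 0.25 each). Against the isoleucine and valine genes together, the differences were -142 ± 21.2 for alanine and -71.7 ± 13.3 for threonine (exact p = 0.25 each).

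**Figure D1:**
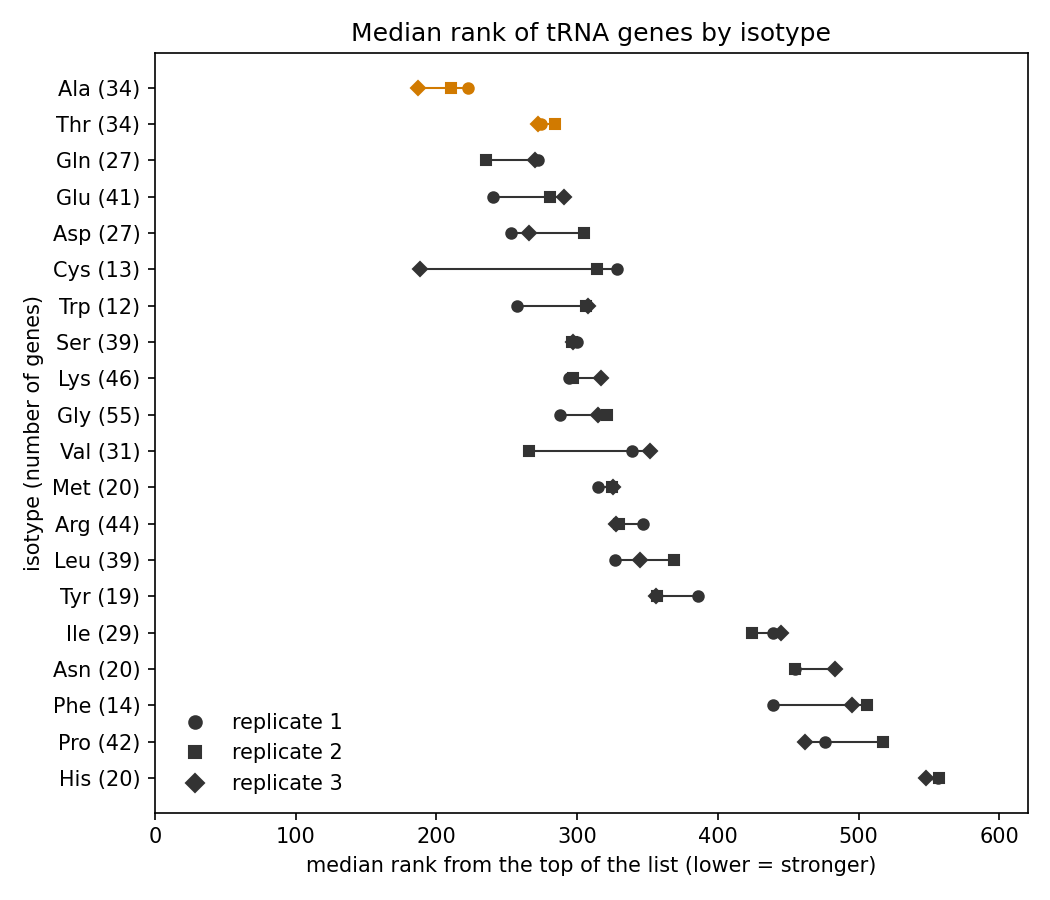
Median rank of tRNA genes by isotype in each of the 3 replicate lists (x axis, rank from the top of the list; circles, squares and diamonds are replicates 1, 2 and 3, and the line joins the lowest and highest). Alanine and threonine are drawn at the top in orange, with the other isotypes below in order of their mean; alanine lies between 187 and 222.5, and threonine between 272 and 284.5.

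The isotype difference in median rank had opposite directions on X and on the autosomes. On X, the 13 alanine genes had median ranks of 52, 56 and 60, against 152.5, 149.5 and 157 for the 14 threonine genes, a difference of -97 ± 3.5 ranks (SD, n = 3 lists; exact sign-flip permutation p = 0.25). The ranges between quartiles overlapped, at 24 to 159 for alanine and 90 to 253 for threonine in replicate 1. On the autosomes the direction of the medians turned round: the 21 alanine genes had medians of 423, 435 and 441, against 383.5, 402 and 409 for the 20 threonine genes, a difference of 34.8 ± 4.07 (exact p = 0.25). The lower quartiles of these autosomal genes kept alanine higher up, at 203, 192 and 171 against 273.5, 262.5 and 268 for threonine. Their upper quartiles were 548, 493 and 510 for alanine and 539.25, 585.25 and 571 for threonine. Against the other tRNA genes of the autosomes, alanine genes lay at 4 ± 13 ranks, within the spread between lists (exact p = 0.75), and threonine genes at -30.8 ± 10.1 (exact p = 0.25). On X the alanine genes lay -170 ± 10.8 and the threonine genes -73 ± 7.47 ranks from the other tRNA genes (exact p = 0.25 each). At the median, the lead of alanine genes over the other tRNA genes was therefore measured on X and not on the autosomes.

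Within each isotype, genes on X ranked higher up than genes on autosomes in all 3 lists. The difference, X minus autosomes, was -377 ± 5.29 ranks for alanine genes and -245 ± 12.3 for threonine genes, beside -203 ± 28.2 for the other tRNA genes (SD, n = 3 lists; exact sign-flip permutation p = 0.25 each). The alanine difference minus the threonine difference was -131.8 ± 7.18 ranks (SD, n = 3 lists; exact p = 0.25), and minus that of the other tRNA genes it was -174 ± 23.6 (exact p = 0.25).

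Identical copies show the chromosome difference at constant gene sequence. How reads that match several copies were placed is not given in the sources used here, and the part of read placement in the copy values was not tested. The 3 X copies of the TGC alanine family ranked far above the 5 autosomal copies, with medians of 24, 21 and 17 against 548, 572 and 647 in replicates 1, 2 and 3. These X medians are the ranks of F15G9.t1, which shared its peak with the AGC gene F15G9.t2. The autosomal copies B0491.t1 and B0491.t2 shared their strongest peak, at ranks 548, 572 and 663. In the reproducible list its summit lay 407 bp from B0491.t1, and another summit lay 16 bp before the start of that gene. With a summit required within 100 bp, the mean rank of B0491.t1 was 754, against 594 with any overlap. Some copies of the AGC alanine and AGT threonine families also shared peaks with other tRNA genes. The X and autosomal TGC groups did not overlap: the weakest X copy was at rank 59, 67 and 64, and the strongest autosomal copy at 201, 192 and 153. The 9 X copies of the AGC alanine family had medians of 52, 56 and 60, against 192.5, 198 and 146.5 for the 8 autosomal copies, and here the groups overlapped, since the X copies reached down to rank 232, 236 and 193 and the autosomal ones up to 84, 57 and 53. In the TGT threonine family the 4 X copies had medians of 46.5, 41 and 52.5, against 318, 302 and 286 for the 5 autosomal copies. These TGT groups were apart in replicates 1 and 2 and overlapped in replicate 3, where the autosomal F52C9.t1 was at rank 68 and the X copy R01H5.t1 at 86. In the AGT threonine family the 7 X copies had medians of 157, 196 and 178, against 358.5, 385.5 and 403.5 for the 8 autosomal copies, with overlap in every list. The CGT threonine family held 1 copy on X, at rank 258, 213 and 258, against medians of 434, 493.5 and 434.5 for 2 autosomal copies.

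**Figure D2:**
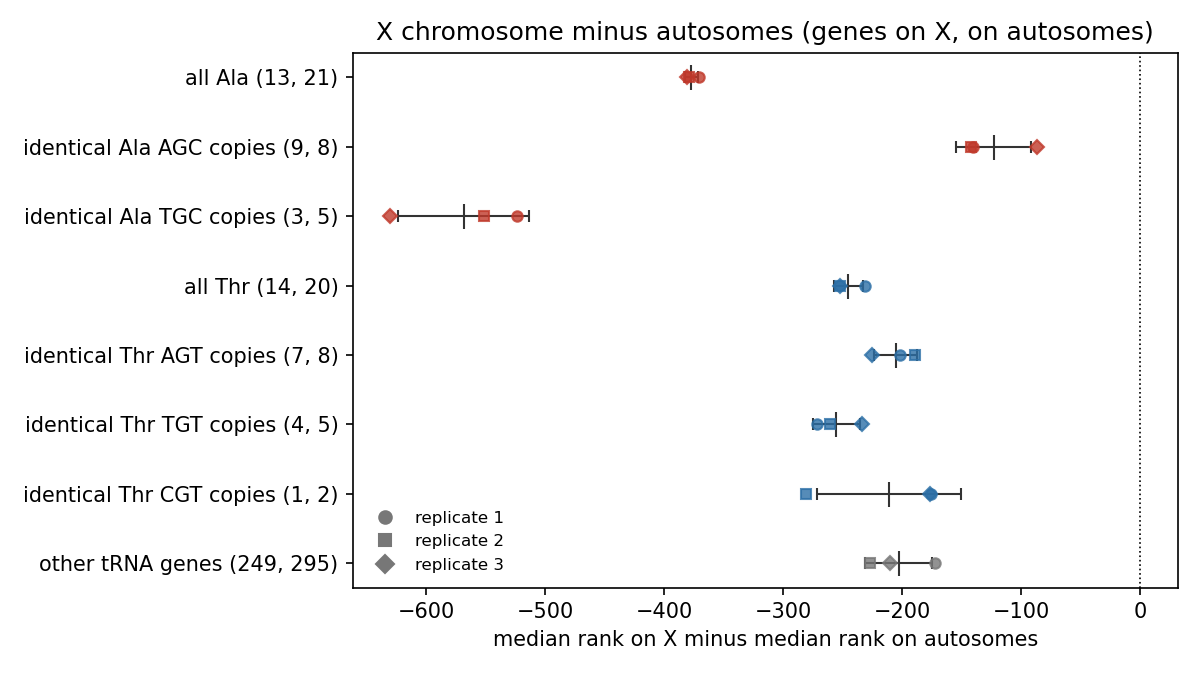
Median rank on X minus median rank on autosomes (x axis, in ranks; negative means stronger peaks on X) for all genes of an isotype, for families of identical copies and for the other tRNA genes; circles, squares and diamonds are replicates 1, 2 and 3, and the bar is the mean ± SD over the 3 lists. Every value lies below 0, and the TGC alanine copies lie farthest from it, at a mean of -568 ± 55.1.

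The anticodon groups differed within each isotype. The AGC alanine genes had median ranks of 186, 187.5 and 155.5, against 374.5, 342.5 and 330 for TGC and 354, 287.5 and 299.5 for CGC. The AGC genes lay -173 ± 16.8 ranks from TGC and -137 ± 34.5 from CGC, while TGC and CGC differed by 35.3 ± 17.8 (SD, n = 3 lists; exact sign-flip permutation p = 0.25 each). This order did not hold within chromosomes. On X the 3 TGC genes had medians of 24, 21 and 17, higher up than the 9 AGC genes with 52, 56 and 60. These TGC medians are the ranks of a peak that F15G9.t1 shared with an AGC gene. On the autosomes the 3 CGC genes had medians of 408, 346 and 330, higher up than the 13 AGC genes with 411, 434 and 438. These CGC medians are the ranks of C06B8.t1, which shared its peak with the tyrosine tRNA gene C06B8.t2. The summit of that peak in the reproducible list lay 717 bp from C06B8.t1. With a summit required within 100 bp, the mean rank of C06B8.t1 was 376, against 361 with any overlap. The 5 autosomal TGC genes lay below both groups with 548, 572 and 647. Among the threonine genes TGT ranked highest up, with medians of 104, 133 and 86, against 286, 306 and 287 for AGT and 460, 464 and 480 for CGT. The TGT genes lay -185 ± 14.3 ranks from AGT and -360 ± 31.7 from CGT, and AGT lay -175 ± 17.5 from CGT (exact p = 0.25 each). The TGT genes, highest in rank, had no exact B box, and neither did the CGT gene T25B6.t1, at ranks 460, 464 and 480. The X chromosome held 4 of 9 TGT, 7 of 17 AGT and 3 of 7 CGT genes. On X alone the order was the same in each list, with medians of 46.5, 41 and 52.5 for TGT, 157, 196 and 178 for AGT, and 258, 213 and 258 for CGT.

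**Figure D3:**
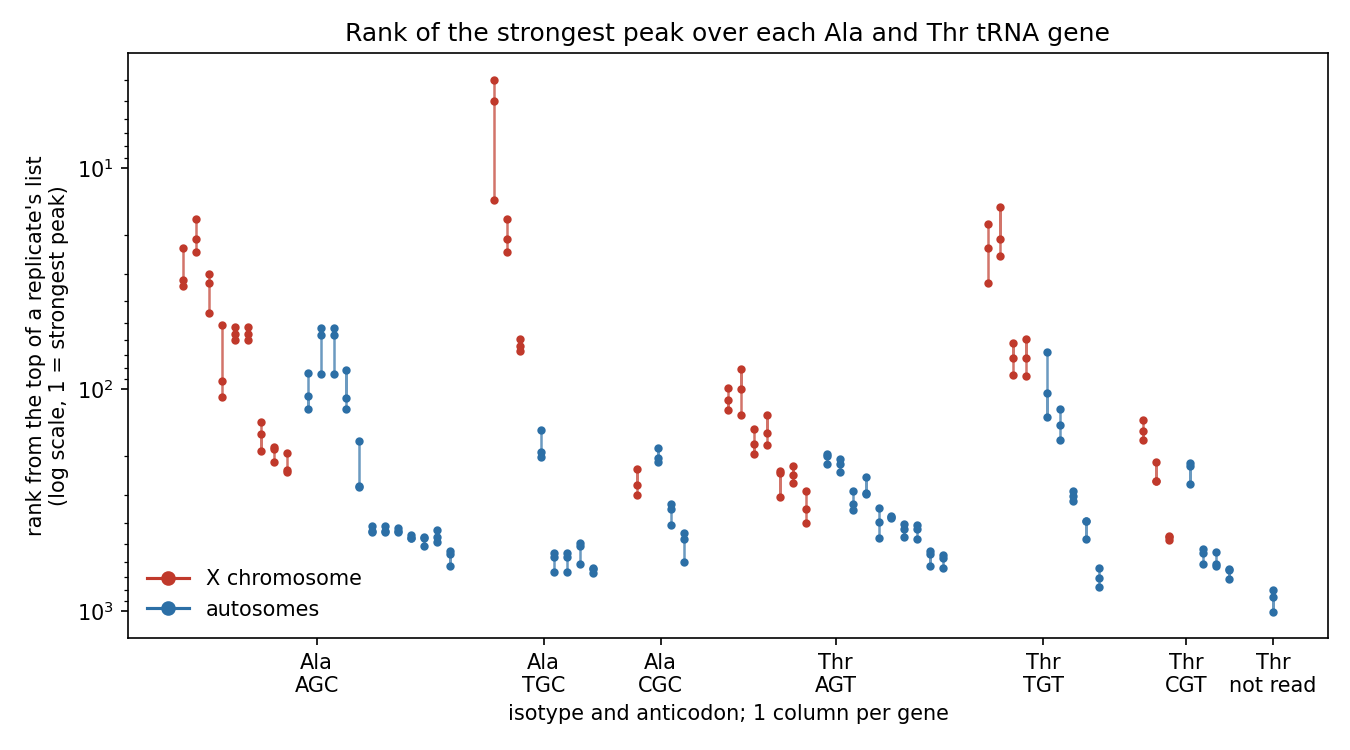
Rank of the strongest peak over each of 67 members (y axis, log scale, 1 at the top) in the 3 replicate lists, grouped by isotype and anticodon; each column is 1 gene, its 3 points are the replicates, and X genes (red) stand left of autosomal genes (blue). K09C6.t1 has no peak and is not drawn, and "not read" is T13B5.t2; T07H6.t1, at ranks 4, 5 and 14, is the highest point, and T13B5.t2, at 802, 1006 and 861, the lowest.

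The alanine genes with the highest signal were all on X. T07H6.t1 (TGC), in an intron of lev-9, a gene for acetylcholine receptor clustering, had the reproducible signal 7211 and ranks of 4, 5 and 14. F15G9.t1 (TGC, X:9743589-9743660) and F15G9.t2 (AGC, X:9743747-9743818) lie 87 bp apart in an intron of him-4, the hemicentin gene, and shared a peak of signal 7162 at ranks 24, 21 and 17. F34H10.t1 (AGC, X:9637852-9637923), outside protein-coding genes, had 5921 and ranks of 30, 33 and 45. C11E4.t1 (AGC, X:9622824-9622895), in C11E4.8, had 5848 and ranks of 23, 34 and 32. T07H6.t1 is identical to the weakest bound alanine gene, the autosomal Y105C5A.t2 (TGC, IV:15604312-15604383), which had signal 1312 and ranks of 675, 642 and 647. The next weakest were Y37A1B.t1 (TGC, IV:14013805-14013876) with signal 1520, the pair B0491.t1 and B0491.t2 (TGC, chromosome II) with a shared 1777, and K06A4.t1 (CGC, V:9503562-9503633), in the sugar transporter gene swt-5, with 1901. All of these weakest alanine genes are autosomal.

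The threonine genes with the highest signal were on X but for 1. T25B6.t2 (TGT, X:9024413-9024484) had signal 7177 and ranks of 18, 23 and 33. F38G1.t1 (TGT, X:487815-487886) had 6603 and ranks of 21, 15 and 25. R01H5.t1 (TGT, X:12563788-12563859) had 5683, and R04D3.t5 (AGT), in an intron of the cytochrome P450 gene cyp-14A4, had 5312 and ranks of 99, 124 and 112. The fifth, F52C9.t1 (TGT, III:5305905-5305976), in F52C9.5, had 5261 and ranks of 104, 133 and 68. At the low end, C53D6.t1 (TGT, IV:9000804-9000875), an identical copy of T25B6.t2, had 1383 and ranks of 642, 708 and 777. C24H11.t1 (CGT, III:11792782-11792853) had 1520, F11H8.t1 (AGT, III:7030557-7030628) had 1721, and F11A5.t1 (CGT, V:16219159-16219230), which carries the substitution T46C relative to its family, had 1876. The strongest CGT gene was F55G7.t1 (X:11933728-11933799) with 4324 and ranks of 154, 169 and 137, and the strongest CGC alanine gene was the autosomal F44A2.t1 (V:9318202-9318273) with 4597 and ranks of 203, 184 and 212.

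In the largest identical families the signal covered a wide range. Of the 17 AGC alanine copies, F15G9.t2 had the highest signal and F15B9.t1 (V:13003509-13003580), in inft-2, a formin-related gene, the lowest, with 2282 and ranks of 488, 461 and 430. Of the 15 AGT threonine copies, R04D3.t5 had the highest signal and F11H8.t1 the lowest, at ranks 639, 577 and 556. The ranks of the 67 members agreed between replicates (Spearman's rho 0.978 to 0.981 over genes, which share a genome and a protocol and are not independent). The members whose ranks differed most between replicates were T07H6.t1, F48E3.t1 (AGC, X:7507290-7507361) at 51, 92 and 108, and F52C9.t1, with highest over lowest rank of 3.5, 2.12 and 1.96.

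Of the 16 members that are no identical copy of another, 13 lay below the median rank of their isotype in all 3 replicate lists, but 13 of the 16 are also autosomal. Against the members of the same isotype on the same kind of chromosome, X or autosome, 10 of the 16 lay below the median in all 3 lists. Among the 52 identical copies, 19 lay below the median of their isotype and 18 below that of their isotype and kind of chromosome in all 3 lists. K09C6.t1, in an intron of K09C6.2 and the member without a peak, differs from the AGC alanine family by G10A, G23T and T65A, where positions count from 1 at the first base of the gene and the family's base comes first. The first of these lies in the A box, which then has 2 mismatches, its B box is exact, and no run of T follows it. M03A1.t2 (II:4565016-4565087) keeps the family's first part, with both boxes, but has 8 substitutions from C63A on, in the last bases of the gene. It was overlapped only by the peak of its neighbour M03A1.t1 (II:4565389-4565460), 302 bp away, with signal 2985 and ranks of 411, 434 and 441, beside autosomal alanine medians of 423, 435 and 441, and no summit lay within 100 bp of it in the reproducible list or in a replicate's list. T07D10.t1 (I:12601778-12601845), an AGC alanine gene of 68 bp, where 33 of the 34 alanine genes have 72, had signal 2596 and ranks of 468, 462 and 510, slightly below those autosomal medians. T13B5.t2, of 73 bp and in an intron of T13B5.9, had the lowest signal of all bound members, 529. The summit of that peak lay 210 bp from the gene, and another reproducible summit lay 39 bp from its start.

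C52E12.t2 is annotated as a threonine gene, but it has the sequence of the AGC alanine family with a single substitution, C35T, which turns the anticodon to AGT. It lies 209 bp from C52E12.t3 (II:7002993-7003064), an AGC alanine copy, inside unc-104, the kinesin gene for synaptic vesicle transport. Both were covered by a single peak with signal 2726 and ranks of 538, 624 and 554. The nearest reproducible summit lay 28 bp before the start of C52E12.t2 and 181 bp before that of C52E12.t3, which is on the other strand. In replicates 1 and 2 a summit lay 3 and 7 bp after the start of C52E12.t3, so there both genes had a summit near their starts.

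The members that differ from their nearest family and did not lie below the median of their isotype in all 3 lists were F55G7.t1, F44A2.t1 and W09G10.t3. F55G7.t1, a CGT threonine gene on X, carries T16A and G67T and was at ranks 154, 169 and 137. F44A2.t1, the CGC alanine gene, carries T33C, C39T and G56A relative to the TGC family and was at ranks 203, 184 and 212. W09G10.t3 (II:3519086-3519157), an AGT threonine gene with A72C and no run of T, was at ranks 218, 199 and 196, higher up than the medians of its anticodon, and it shared its peak with the tRNA gene W09G10.t2. T25B6.t1 (X:9025663-9025734), with the anticodon CGT, differs from the TGT family by T33C and G67A, and had signal 2688 and ranks of 460, 464 and 480, the lowest of the X threonine genes. It lies 1179 bp from the identical TGT gene T25B6.t2, whose rank was 18 to 33. In the pooled list a peak at rank 26 covered both T25B6 genes.

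Shared peaks concerned 18 members in the reproducible list. The pairs F15G9.t1 and F15G9.t2, M03A1.t1 and M03A1.t2, C52E12.t2 and C52E12.t3, B0491.t1 and B0491.t2, and Y65A5A.t1 and Y65A5A.t2 each shared 1 strongest peak, and 8 further members shared theirs with tRNA genes of other isotypes. The Y65A5A pair, AGC alanine genes at IV:16398384-16398455 and IV:16399184-16399255, held the signal 4134 and ranks of 85, 57 and 53, among the highest on an autosome. In replicates 1 and 3 this peak also covered the tRNA gene Y65A5A.t3, and in replicate 1 Y65A5A.t4 too. With a summit required within 100 bp of the gene, the mean rank of Y65A5A.t2 was 99.7, against 65 with any overlap. In the replicate lists the AGC alanine genes F18G5.t1 and F18G5.t2, both inside lgc-4, a gene of the ligand-gated ion channel family, shared a peak at ranks 52, 56 and 60, whereas each had its own reproducible peak, with signals of 5316 and 5677. For 7 members the summit of the strongest reproducible peak lay over 100 bp away. In 19 of 34 alanine genes and 28 of 34 threonine genes the nearest tRNA gene was over 1000 bp away, against 329 of the 544 other tRNA genes.

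The place relative to protein-coding genes was alike for both isotypes. Introns held 15 alanine genes and 15 threonine genes, 19 and 18 lay outside protein-coding genes, and W02G9.t2 lay in an untranslated exon of thum-1. Of the 31 nested genes, 16 were on the strand of the host gene and 15 on the other. Intronic alanine genes had median ranks of 213, 186 and 181, against 232, 229 and 193 for those outside genes. Intronic threonine genes had medians of 341, 345 and 349, against 229, 214.5 and 209.5 for those outside genes. The places were not matched for chromosome. Of the 14 threonine genes on X, R11B5.t1, ZK563.t1, F25F6.t2 and R04D3.t5 were intronic, and the others lay outside protein-coding genes. Of the 13 alanine genes on X, T07H6.t1, C56G3.t1, C11E4.t1 and the F18G5 and F15G9 pairs were intronic. X genes ranked higher up in both isotypes, so place and chromosome cannot be told apart in these medians. These differences were not tested.

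The summit, the point of highest signal in a peak, lay near the gene start in the reproducible list and farther into alanine genes in the replicate lists. Its median distance from the start was 15 bp for alanine genes, 12.5 bp for threonine genes and 13 bp for the other tRNA genes in the reproducible list. In replicates 1, 2 and 3 it was 46.5, 48 and 56 bp for alanine, 19.5, 40 and 17.5 bp for threonine, and 17, 19 and 17 bp for the other genes. Alanine summits lay 32.5 ± 5.63 bp farther in than those of the other tRNA genes in these lists (SD, n = 3 lists; exact sign-flip permutation p = 0.25), against 2 bp in the reproducible list. They lay 24.5 ± 15.4 bp farther in than threonine summits (exact p = 0.25). With genes that had another tRNA gene within 1000 bp left out, these differences were 33 ± 7 and 24.7 ± 11.3 bp (exact p = 0.25 each). In windows chosen after the values were seen, 4 alanine summits lay 45 to 70 bp from the start, where the B box is, in the reproducible list, and 15, 18 and 17 did in the replicate lists. As a share of genes with a summit this was 12.5% in the reproducible list and 46.9%, 54.5% and 53.1% in the replicate lists, against 8.08%, 17.3%, 19.1% and 19.1% of the other tRNA genes. The window was fixed from the members' B box, and only 219 of the 544 other tRNA genes have the length of most members. The share of other genes with a summit at their own B box was not measured. Of the threonine summits 3 lay in that window in the reproducible list, and 6, 13 and 9 did in the replicate lists, or 8.82%, 17.6%, 38.2% and 26.5%, near the share of the other tRNA genes in the reproducible list and in replicate 1. None of the 1914 reproducible peaks had the interval and summit of a peak in a replicate list or in the pooled list, so the call behind the reproducible summits is not known.

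**Figure D4:**
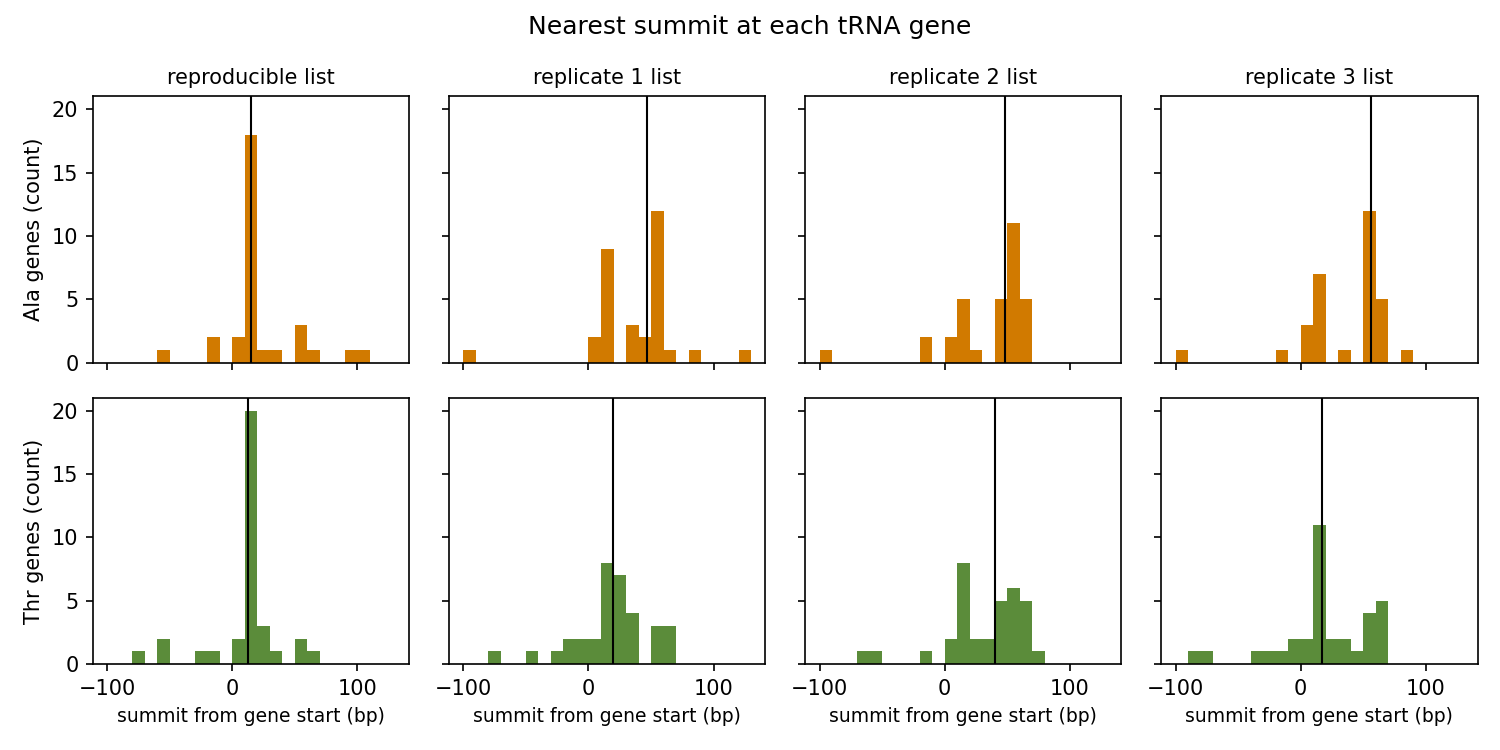
Number of alanine genes (top row) and threonine genes (bottom row) by the distance of the nearest summit from the gene start in bp (bins of 10 bp; positive is into the gene), in the reproducible list and in the replicate lists; the black line is the median. Summits beyond the axis, at C52E12.t3 and M03A1.t2, are not drawn; alanine medians lie at 15 bp in the reproducible list and at 46.5, 48 and 56 bp in the replicate lists.

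Rank was set beside the sequence around the genes. The length of the run of T had Spearman's rho of -0.43, -0.41 and -0.38 with rank over 33 alanine genes, with longer runs at stronger peaks, and -0.05, -0.07 and -0.05 over 33 threonine genes. The distance from the gene's end to that run had rho of 0.25, 0.26 and 0.30 for alanine and -0.37, -0.36 and -0.39 for threonine, so its sign differed between the isotypes. The gap to the nearest tRNA gene had rho of 0.16, 0.18 and 0.14 for alanine and 0.40, 0.40 and 0.39 for threonine. The AT share of the 50 bases before the gene had rho of -0.32, -0.26 and -0.19 for alanine and 0.15, 0.12 and 0.20 for threonine. The share of 36-base words around a gene that occur again in the genome, a measure of how many reads could match elsewhere, had rho of -0.04, -0.05 and -0.10 for alanine and -0.15, -0.19 and -0.15 for threonine. These are descriptions across genes, many of them identical copies. They pool genes on X and on autosomes, whose ranks differed, and were not computed within chromosomes. The genes for alanine and threonine tRNA synthetases showed no reproducible peak within 250 bp of their starts: neither aars-1 nor aars-2, for alanine, nor tars-1, for threonine, was called. In the replicate lists their peaks were absent or far down, with the best ranks at 5515 for aars-2, 8542 for aars-1 and 10089 for tars-1.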

How the data were processed

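RPC-1 ChIP-seq peak lists of 1 group with 3 biological replicates were used. The signal of each peak was deposited by the authors and is set within a list. Per the deposited file lists, the replicate and pooled lists were input for the irreproducible discovery rate (IDR), which keeps peaks whose ranks hold between replicates, so they also hold weak peaks and background, and a control alignment stood behind each list. The control was not analysed here. The sources used here name no aligner, peak caller or settings, nor how reads matching several places were treated. Depth is unknown. Only ce11 lists were used, with WBcel235 and its RefSeq annotation. All 68 members were matched by biotype and product.

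Ranks were counted over a whole list, and a gene without a peak took the rank after the last. Medians over genes were compared within each list, then by the mean and SD over 3 lists and an exact two-sided sign-flip test. Anticodons were read from a 7-base loop between arms with at least 4 of 5 pairs. Families were identical sequences found within 5 bp of the annotated start. Genes were named by rule: members without a peak, the 5 highest and 5 lowest signals per isotype, the strongest and weakest per anticodon and in the largest identical family, shared peaks and the 3 largest rank ratios. Genes of unusual sequence, F18G5.t1, F18G5.t2 and T25B6.t1 were named after their values were seen. The members and lists were chosen with earlier results of these data known. Calculations used Python 3.11.15, pandas 2.3.3, NumPy 2.4.6 and SciPy 1.17.1, and were tested on simulated data.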

Additional observations from a re-analysis of the deposited data

How the results depend on the processing

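The numbers of covered members kept within 1.5 times of their values under each alternative tried (the top 957 peaks, whole genes covered, summit within 100 bp, the pooled list, peaks found in every replicate), and the lowest was 31 alanine genes with a summit within 100 bp. Restricting to autosomes turned the direction of the median difference for alanine minus threonine (34.8 ranks) and for alanine minus the other tRNA genes (4 ranks). The cause was not tested. Leaving out each replicate gave -79.5 to -63 ranks for alanine minus threonine, -141.8 to -120.2 for alanine and -65 to -57.2 for threonine minus the other genes, -380 to -375 for X minus autosomes in alanine and -252.2 to -241.5 in threonine. Alanine minus threonine was -59 with shared peaks counted once and -41.5 in the pooled list. It was -132 with identical copies only and -44.7 with C52E12.t2 counted as alanine, both chosen after seeing the data. With a summit required within 100 bp, threonine minus the other genes was -126, against -61.5 with any overlap, and both isotypes together -156, against -91.5. On autosomes only, both isotypes together were at -1.33 ranks from the other tRNA genes, with that sign in 1 of 3 lists (exact p = 1). The median alanine summit was at 46.5, 48 and 56 bp in the replicate lists and at 56 bp in the pooled list, against 15 bp in the reproducible list, the median threonine summit was at 40 bp in replicate 2, against 12.5 bp, and the cause was not tested. Without replicate 3 the mean rank of T07H6.t1 was 4.5, against 7.67 over all 3. No paired analysis was possible because there are no 2 groups of samples to pair, and gene groups were compared within each list. The lists carry no read numbers, so no value can be weighed by depth.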
